A study of Mus musculus with 7 samples.

Results

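Notch is a signalling pathway in which a ligand on a cell, such as Dll1, binds a Notch receptor on its neighbour. The receptor is then cut, and its intracellular part enters the nucleus, where it binds the DNA-binding protein Rbpj and a Mastermind coactivator such as Maml2. The complex switches on Hes and Hey genes, which code for transcriptional repressors, and Nrarp, whose protein dampens the pathway in turn. In the mammary gland, Notch is known for its part in luminal cell fate.

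The chromatin of 7 genes of this response was examined: the repressor genes Hes1, Hey1, Hey2 and Heyl, the feedback inhibitor gene Nrarp, and Rbpj and Maml2, which code for components of the nuclear complex. The assay was ATAC-seq, in which a transposase inserts sequencing adapters into accessible DNA. The cells came from mammary tumors of mice that carried both the MMTV-PyMT transgene, which expresses the polyoma middle T oncoprotein from a promoter active in mammary epithelium, and a Dll1-mCherry reporter. Cells bearing CD45, CD31 or Ter119 were sorted away, and tumor cells that remained were separated by the reporter, with mCherry (Dll1+) or without it (Dll1−). There were 3 Dll1+ and 4 Dll1− samples from 4 tumors, and 3 tumors gave both. Ages were not given in the sources used here.

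The deposited data were 2 lists of peaks, each pooled over the samples of a group, with 132872 rows for Dll1+ and 148923 rows for Dll1−. No value per sample was analysed, so there were no replicates behind any value below, and no test of a difference between the groups was possible. Each row gave a summit with its fold enrichment, the ratio of the reads at the summit to the local background after 1 is added to each. The added 1 weighs more where the background is low. Rows of both lists that overlapped or touched were merged into 119215 union regions. A union region belonged to the protein-coding gene whose transcription start site (TSS) lay nearest to its midpoint, and 145 regions belonged to the 7 genes. A region was called shared when both lists contributed rows to it, and Dll1+ specific or Dll1− specific when a single list did. Its strength in a list was the percentile of its strongest row among all rows of that list, from 0 for the weakest to 100 for the strongest.

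Where both fold and p-value allowed it, the reads under each summit were recovered from them. Background reads across the genome were 3.74 per summit for Dll1+ and 7.20 for Dll1−, so the Dll1− list was the deeper of the pair. Promoters of luminal markers were accessible in both lists for 6 of 6 genes (Epcam, Krt8, Krt18, Krt19, Cdh1 and Elf5). Of 4 basal markers, Acta2 alone had a promoter region, and Krt5, Krt14 and Trp63 had none in either list. Of 5 immune markers, 0 had a promoter region in the Dll1+ list and 1, Csf1r, had a region in the Dll1− list. The endothelial list of 5 gave 1 gene in each list (Kdr), and the fibroblast list of 5 gave 1 in Dll1+ and 2 in Dll1− cells. In sorted bulk cells, fewer cells of a type and less accessibility per cell cannot be told apart.

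Rbpj binds a short DNA sequence, and the letters of the regions were searched for its consensus, TGTGGGAA or CGTGGGAA, on both strands. The windows below show 30 bases around such matches, with the consensus in capitals, read 5′ to 3′ on the strand given, from the GRCm38 genome that corresponds to the build (mm10) named in the submitters' processing notes. They were chosen because they show the consensus in regions called in a single list and in shared regions. Shared regions marked as higher in a list differed by at least 20 percentile points, and those marked shared alone by less.
Hes1, 150 kb upstream, shared, chr16:29915437-29915466, minus strand: ctgtggtcaccCGTGGGAAtgctcctcctg
Hes1, 56.3 kb upstream, shared, chr16:30009054-30009083, minus strand: ccgccccagacTGTGGGAAaacgctgctcc
Hey1, 35.7 kb downstream, shared and higher in Dll1+, chr3:8631559-8631588, plus strand: ccaggatgtatTGTGGGAAgcaggctgggg
Hey1, 21.9 kb upstream, Dll1+ specific, chr3:8689092-8689121, plus strand: gctttctcctgTGTGGGAAagggaaagcag
Hey1, 44.6 kb upstream, shared and higher in Dll1−, chr3:8711827-8711856, plus strand: agtgacacgcaTGTGGGAAccctgctgtga
Heyl, 6.09 kb downstream, Dll1− specific, chr4:123239629-123239658, plus strand: gcgctccggccCGTGGGAAgcggcggcatc
Nrarp, 12.6 kb upstream, shared and higher in Dll1+, chr2:25168140-25168169, minus strand: ggacgggcaggCGTGGGAAagcgggaggag
Nrarp, 7.95 kb upstream, shared and higher in Dll1−, chr2:25172793-25172822, plus strand: gggcaatgggcCGTGGGAAaaccagcactc
Nrarp, 2.92 kb upstream, Dll1+ specific, chr2:25177824-25177853, minus strand: gtgttggggagCGTGGGAAagaggagagtg
Nrarp, 1.99 kb upstream, Dll1+ specific, chr2:25178750-25178779, minus strand: tgtgagctcagTGTGGGAAcgccaggcccc
Rbpj, 887 bp upstream, shared, chr5:53589312-53589341, minus strand: acaacacgggcCGTGGGAAatttcctaagc

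Promoter sequences from RefSeq (GRCm38.p6), from 250 bases before to 50 bases after the start site, were matched for 4 of the 7 genes, Hey2, Nrarp, Rbpj and Maml2. Hes1, Hey1 and Heyl were not matched. The Hey2 promoter is printed because it was the strongest promoter region of the 7 genes in both lists and held 2 matches to the 7-letter core GTGGGAA, shown in capitals. The upstream match lies on the opposite strand and reads as its reverse complement.
Hey2 promoter, chr10:30842734-30843033, minus strand: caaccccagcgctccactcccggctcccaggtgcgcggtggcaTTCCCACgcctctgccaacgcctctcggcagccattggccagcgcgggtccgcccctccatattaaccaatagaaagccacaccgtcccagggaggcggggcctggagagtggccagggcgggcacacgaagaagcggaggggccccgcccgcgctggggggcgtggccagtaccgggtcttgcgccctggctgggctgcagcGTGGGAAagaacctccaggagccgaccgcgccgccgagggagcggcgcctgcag
Both core matches belonged to the full consensus, which 2.57% of all 32851 RefSeq promoters of this length held. The windows of Nrarp, Rbpj and Maml2 held no match in these letters.

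The consensus was more frequent near the summits of the 7 genes' regions than in the union regions as a whole. Within 100 bp on each side of the strongest summit, 14 of 145 windows held it (9.66%, Wilson 95% interval 5.84 to 15.6), against 2.07% of all 119215 windows. Both sets had a median GC content of 50.2%. Searched over whole regions, the consensus was in 21 of 145 regions (14.5%) against 5.34% of all. These 21 regions held 23 matches in all, 8 of them around Hey1, 6 around Hes1, 4 around Nrarp, 2 each around Hey2 and Heyl, and 1 around Rbpj. None of the 35 Maml2 regions held a match, with a Wilson upper limit of 9.89%.

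The matches were found in both shared and specific regions. Of the shared windows, 11 of 104 held the consensus, as did 3 of 16 Dll1+ specific windows (18.8%, 6.59 to 43.0). Of the Dll1− specific windows 0 of 25 did, with a Wilson upper limit of 13.3%. Over all union regions the consensus was in 2.00% of shared windows, in 2.15% of those specific to Dll1+ and in 2.22% of those specific to Dll1−. The intervals of both specific classes overlap. Over whole regions the counts were 3 of 16 Dll1+ specific and 2 of 25 Dll1− specific regions (8%), beside 3.56% and 3.66% of all such regions. The 3 Dll1+ specific windows were those 21.9 kb upstream of Hey1 and 2.92 and 1.99 kb upstream of Nrarp, printed above, and the Hey1 match lay 3 bp from the summit.

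Other short motifs did not differ in the same way. AP-1, a dimer of Fos and Jun proteins, binds TGACTCA or TGAGTCA, which 24 of 145 members' windows held (16.6%, 11.4 to 23.4) against 18.1% of all windows. Among Dll1− specific windows, 4 of 25 (16%, 6.40 to 34.7) held AP-1 against 30.4% of all Dll1− specific windows. Among Dll1+ specific windows 0 of 16 did, with a Wilson upper limit of 19.4%, against 4.40% of all. The N-box CACAAG and the E-box CACGTG, sequences that Hes and Hey repressors bind, were in 13.8% and 4.14% of the members' windows against 14.5% and 3.98% of all. The NF-kB consensus was in 2.76% against 3.02%. A match shows only that the letters are present, not that a factor was bound.

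Most regions of the 7 genes were accessible in both Dll1+ and Dll1− cells. Of the 145 regions, 104 were shared (71.7%, Wilson 95% interval 63.9 to 78.4), against 66.4% of all union regions. Dll1+ specific regions numbered 16 (11.0%, 6.91 to 17.2), beside 9.01% of all union regions, and Dll1− specific regions numbered 25 (17.2%, 12 to 24.2), beside 24.6% of all. Among the specific regions, 39.0% (25.7 to 54.3) were Dll1+ specific against 26.8% overall. These counts depended on the overlap and threshold: a reciprocal overlap of 50% gave 27 Dll1+ specific regions, and asking specific regions to exceed their list's median fold left 0 Dll1+ specific and 2 Dll1− specific. The intervals cover counting error only, regions of a gene are not independent, and reads were not counted as molecules.

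All 12 promoter regions, those overlapping 1000 bp upstream to 100 bp downstream of a member's TSS, were shared. Of the other regions, 73 were intergenic, 57 intronic, 2 in coding exons and 1 in a UTR. Specific regions were mostly weak. In the 7 genes their median percentile was 19.9 in Dll1+ and 22.3 in Dll1− cells, against 29.4 and 32.6 over all such regions.

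**Figure D1:**
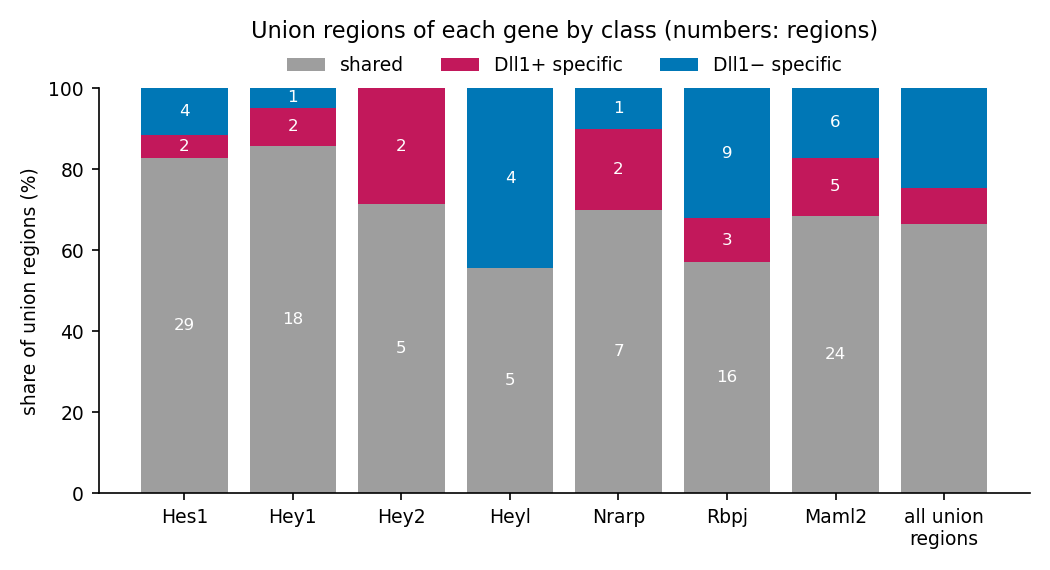
Share of union regions (%, vertical axis) called in both lists or in a single list, for each gene and for all union regions; the numbers in the bars are regions. Hey2 had 2 Dll1+ specific and no Dll1− specific regions, Heyl had 4 Dll1− specific and no Dll1+ specific regions, and Rbpj had 9 Dll1− specific regions of 28.

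Counts of specific regions by gene are read beside the 9.01% Dll1+ specific and 24.6% Dll1− specific of all union regions, and differences between genes were not tested. Hey2 had 7 regions, 5 shared and 2 Dll1+ specific. Heyl had 9 regions, 5 shared and 4 Dll1− specific. Rbpj had 28 regions, with 3 Dll1+ specific and 9 Dll1− specific. Maml2 had 35 regions, with 5 and 6, and Hes1 had 35 regions, with 2 and 4. Hey1 had 21 regions, with 2 and 1, and Nrarp had 10, also with 2 and 1.

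Among the 104 shared regions, the strength percentile in Dll1+ minus that in Dll1− had a median of −3.43 points (95% interval of the median −5.44 to −0.90, over regions), against −1.67 over all shared regions. The sign depended on which rows were ranked: with equal numbers of rows the members' median was 0.02 and that of all shared regions 0.26, and with ranks among shared regions alone they were −0.62 and −0.09. Regions at least 20 points higher in Dll1+ numbered 12 (11.5%), beside 6.39% of all shared regions, and regions at least 20 points higher in Dll1− numbered 14 (13.5%), beside 11.1% of all. Both shares were above the background, a difference that was not tested, and shifts of this size ran in both directions.

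**Figure D2:**
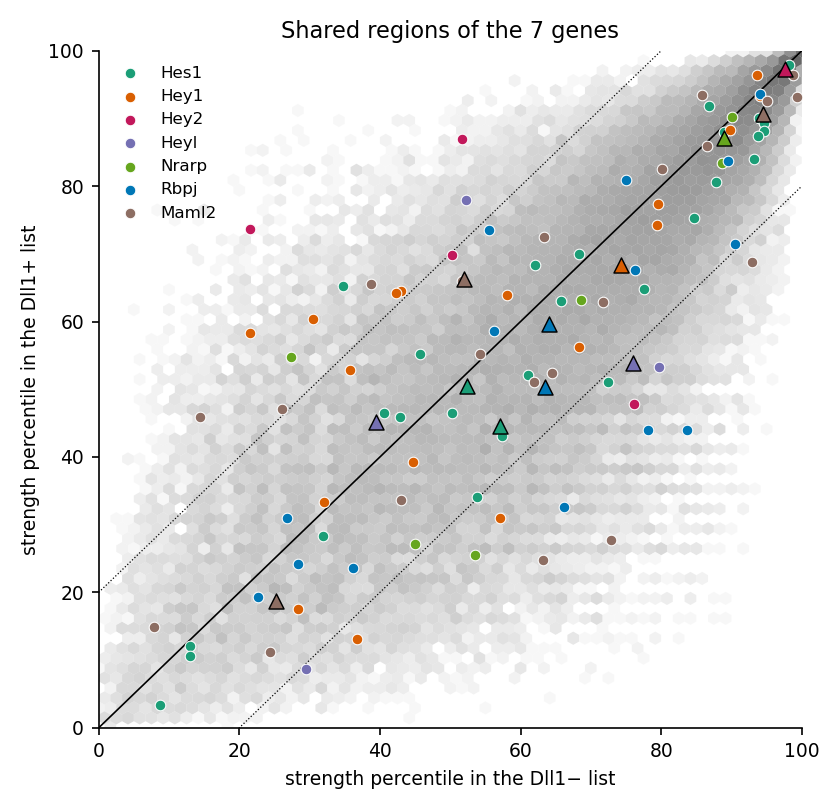
Strength percentile in the Dll1− list (horizontal axis) against that in the Dll1+ list (vertical axis) for the 104 shared regions of the 7 genes (colored points; triangles are promoter regions) over all 79153 shared regions (grey, darker where denser). Dotted lines mark a difference of 20 points. Of the members' regions, 12 lie on or above the upper dotted line and 14 on or below the lower one, and the Hey2 promoter lies at the upper right corner.

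Recovered summit reads gave a second measure that does not divide by the local background. For each shared region the Dll1+ reads were divided by the Dll1− reads and scaled so that the median over all shared regions was 1. The members' median scaled ratio was 0.996. Intervals given with single ratios are exact 95% intervals for counting error only. Ratios are relative to the median of all shared regions, while rank differences are not centered and count from 0. Scaling by the genome-wide backgrounds in place of that median would multiply every ratio by 1.18, a shift of 0.24 on the log2 scale, which takes the medians of Hes1 and Rbpj from below to above 1. Over all shared regions, the interval lay wholly above 1 at 16.4% and wholly below 1 at 15.8%. All shared regions were also cut into 5 groups by their reads in both lists together. The group with the fewest reads had a median ratio of 1.06, and the others 0.985 to 0.993.

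Hey2 codes for a repressor best known in the developing heart and arteries, and its regions away from the promoter ranked higher in Dll1+ cells at 3 of 4 sites. The gene lies on chromosome 10 (30832359 to 30842801, minus strand). Its promoter region was among the strongest anywhere, at percentile 97.3 in Dll1+ and 97.6 in Dll1− cells, with 606 and 802 reads (scaled ratio 1.23, 1.11 to 1.37).

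The intergenic region 51.1 kb upstream of Hey2 (chr10:30893634-30894251) stood at percentile 73.7 in Dll1+ and 21.5 in Dll1− cells, with 41 against 25 reads (ratio 2.67, 1.59 to 4.59). This difference of 52.2 points was the largest of the 104 shared regions. Its 25 reads in the Dll1− list were few, at percentile 8.45 of that list by reads. The intergenic region 14 kb downstream of the TSS (chr10:30828412-30829280) stood at 87.0 against 51.6, with 90 against 41 reads (ratio 3.58, 2.45 to 5.31). The intronic region 7.28 kb downstream stood at 69.9 against 50.2, with 41 against 40 reads (ratio 1.67, 1.05 to 2.65). The region 17.6 kb downstream went the other way, at 47.8 against 76.1, with 38 against 69 reads (ratio 0.897, 0.588 to 1.35). The stronger of the 2 Dll1+ specific regions, 10.9 kb upstream, held 18 reads at percentile 29.4, and the other, 220 kb upstream, held 16 reads at percentile 22.7.

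The median difference over the 5 shared Hey2 regions was 19.6 points. Among the 1085 genes with exactly 5 shared regions, the central 95% of such medians ran from −18.7 to 9.81, and Hey2 stood at percentile 99.7. Its median scaled ratio was 1.67, against 1.09 for the 70 shared regions within 2 Mb of the gene. Within 50 kb of the TSS, which leaves out the region 51.1 kb upstream, the median difference was 9.66 points over the 4 shared regions that remained. That value lies inside the range above, although the range is for genes with exactly 5 shared regions.

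Hey1, which codes for a related repressor, had scaled read ratios above the median of all shared regions along most of its locus. It lies on chromosome 3 (8663359 to 8667256, minus strand). The scaled ratio was above 1 at 16 of its 18 shared regions, the whole interval lay above 1 at 11, beside 16.4% of all shared regions, and below 1 at none. The median was 1.42, against 1.08 for 179 shared regions within 2 Mb, and stood at percentile 96.7 among the 5501 genes with at least 5 shared regions.

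The ranks by fold did not show this shift. The median rank difference of Hey1 was −1.09 points, at percentile 57.3 of those genes, and it turned to 0.74 with equal numbers of rows and to 2.79 when ranked by −log10 p-value. The local background at its regions was also higher in Dll1+ cells, at a median of 2.05 times the genome-wide level against 1.45 times in Dll1− cells, and fold divides by it. The part of this background in the result was not tested.

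Neighboring intergenic regions downstream of Hey1 ranked higher in Dll1+ by both measures. The region at 31.8 kb (chr3:8635091-8635816) stood at percentile 58.4 against 21.5, with 52 against 25 reads (ratio 3.39, 2.07 to 5.70). Those 25 reads stood at percentile 8.45 of the Dll1− list by reads. The region at 35.5 kb (chr3:8631564-8631876) stood at 64.5 against 43.0, with 63 against 37 reads (ratio 2.77, 1.82 to 4.28). The region at 39.0 kb (chr3:8628039-8628512) stood at 60.3 against 30.5, with 37 against 29 reads (ratio 2.08, 1.24 to 3.51). The region at 35.5 kb holds the consensus printed above, 146 bp from its summit.

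Upstream of Hey1, shifts ran both ways. The region 24.6 kb upstream stood at 64.3 in Dll1+ and 42.3 in Dll1− cells, with 36 and 35 reads. The region 44.5 kb upstream, with a consensus, stood at 31.0 and 57.2, a difference of −26.2 points, although its scaled ratio was 1.08 (0.799 to 1.45). The strongest Hey1 region in Dll1+ cells lay 77.8 kb upstream, at 96.4 against 93.7. The strongest in Dll1− cells lay 45.6 kb upstream, at 93.4 in Dll1+ against 94.1 in Dll1− cells. The Hey1 promoter stood at 68.3 against 74.2, with 287 against 362 reads (ratio 1.29, 1.10 to 1.51), and held 2 consensus matches. The stronger Dll1+ specific region, 21.9 kb upstream, held 23 reads at percentile 27.9, and the Dll1− specific region, 50.4 kb upstream, stood at percentile 3.47.

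Heyl, the third Hey gene, showed the opposite balance over most of its locus on chromosome 4 (123233556 to 123249875, plus strand). The promoter region nearest its TSS (chr4:123233439-123234093) stood at percentile 53.8 in Dll1+ and 76.0 in Dll1− cells, with 36 against 124 reads (ratio 0.473, 0.317 to 0.691). It was the promoter region with the largest difference among the 12. The second promoter region, 1.03 kb upstream, ranked slightly higher in Dll1+, at 45.2 against 39.5. Its reads were 32 against 65 (ratio 0.802, 0.508 to 1.24), so rank and ratio pointed in opposite directions there.

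The Heyl region 13.6 kb upstream stood at 53.3 against 79.6, with 27 against 83 reads (ratio 0.530, 0.330 to 0.827). Of the 4 Dll1− specific regions, the strongest lay 21.3 kb downstream (chr4:123254674-123254938), with 75 reads at percentile 78.7, and was the strongest specific region of all 7 genes. A region in the UTR 15.7 kb downstream (chr4:123248876-123249686) went the other way, at 78.0 in Dll1+ against 52.2 in Dll1− cells, with 87 against 59 reads (ratio 2.40, 1.71 to 3.40). It was the strongest Heyl region in Dll1+ cells.

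The median difference over the 5 shared Heyl regions was −20.9 points, at percentile 1.43 among the 1085 genes with exactly 5 shared regions. It was −12.3 with equal numbers of rows and −8.53 with ranks among shared regions alone. Heyl is known for expression in smooth muscle and pericytes. Of 5 mural cell markers, 2 had a promoter region in Dll1+ cells and 4 in Dll1− cells. Pdgfrb and Rgs5 were called in Dll1− cells alone, and Cspg4 in neither list. The markers called in both were Myh11, at percentile 78.0 in Dll1+ against 85.5 in Dll1− cells (scaled ratio 0.734), and Mcam, at 51.6 against 42.8 (scaled ratio 1.20). The Dll1− list was the deeper, and 24.6% of all union regions were specific to it, beside 9.01% specific to Dll1+. Of the marker lists above, immune gave 0 and 1 and fibroblast 1 and 2, while luminal, basal and endothelial gave equal numbers. The part of the mural markers in the Heyl values was not tested.

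**Figure D3:**
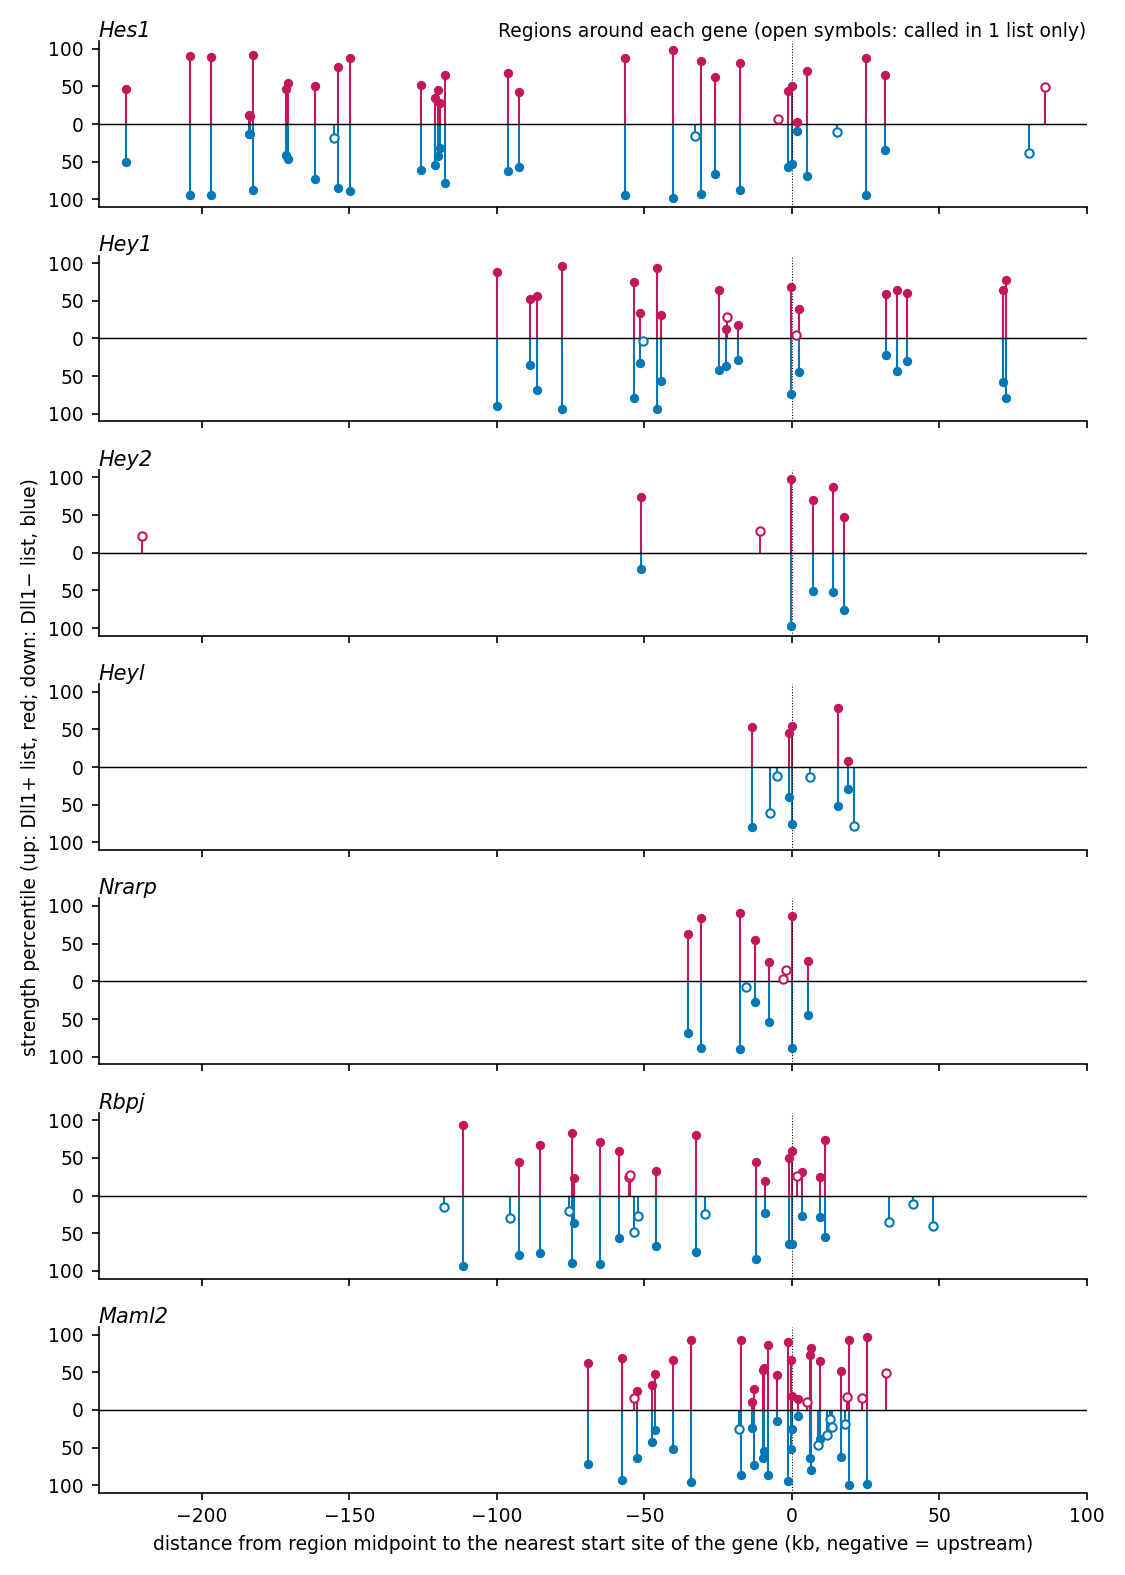
Each union region of the 7 genes by its distance to the nearest TSS of the gene (horizontal axis, kb, negative upstream) and its strength percentile (vertical axis, up for the Dll1+ list and down for the Dll1− list). Open symbols are regions called in a single list. The downstream trio of Hey1 between 31.8 and 39.0 kb reaches higher in Dll1+, and the 4 open symbols of Heyl all point down.

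Hes1, a classical Notch target, had many strong shared regions that mostly ranked alike in both lists. It lies on chromosome 16 (30064384 to 30067796, plus strand), and 29 of its 35 regions were shared, from 226 kb upstream to 31.4 kb downstream. Its strongest region in both lists lay 40.4 kb upstream (chr16:30024615-30025240), at percentile 97.8 in Dll1+ and 98.1 in Dll1− cells. Reads there were 134 and 345 (ratio 0.633, 0.515 to 0.775), so the ranks were alike while the scaled reads were lower in Dll1+ cells.

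The Hes1 promoter region stood at percentile 50.5 in Dll1+ and 52.3 in Dll1− cells, with 205 and 315 reads (ratio 1.06, 0.885 to 1.27). By reads it was stronger than 94.3% and 94.4% of summits. The local background, by which fold divides, was 35.4 and 59.9 reads there. The consensus match in it lay 78 bp upstream of the TSS and 5 bp from the summit. The second promoter region, 1.37 kb upstream, stood at 44.6 against 57.1, with 168 against 314 reads (ratio 0.872, 0.719 to 1.05).

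A single Hes1 region was at least 20 points higher in Dll1+ cells, 31.4 kb downstream (chr16:30096439-30097116), at 65.2 against 34.7 with 34 against 31 reads (ratio 1.79, 1.07 to 3.01). A single region was at least 20 points higher in Dll1− cells, 162 kb upstream, at 51.1 against 72.4 with 26 against 63 reads (ratio 0.672, 0.409 to 1.08). The strongest specific regions were both downstream, at 86.0 kb for Dll1+ with 25 reads and at 80.3 kb for Dll1− with 33 reads. The median difference was −3.68 points (−7.24 to −0.90), at percentile 33.3 among the 5501 genes, and turned to 0.28 with equal numbers of rows. The interval is over regions of the locus and holds no variation between samples. The median scaled ratio was 0.894. Of the 29 shared regions, 6 had the whole interval of the ratio below 1, beside 15.8% of all shared regions, and 2 had it above 1. Among the 6 were the regions 30.8 kb upstream, with 70 against 213 reads (ratio 0.536, 0.403 to 0.705), and 25.3 kb downstream, with 64 against 180 reads (ratio 0.579, 0.429 to 0.775).

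All 6 Hes1 regions with a consensus differed by less than 10 points between the lists. By reads, the region 154 kb upstream had a scaled ratio of 0.765 (0.644 to 0.907). The region 96.3 kb upstream had a ratio of 1.36 (1.02 to 1.80), and the intervals of the others included 1. The region 150 kb upstream stood at 88.0 in Dll1+ and 89.0 in Dll1− cells, with 265 and 464 reads. The region around 56.3 kb upstream stood at 88.2 and 94.6, with 206 and 398 reads. Both were among the stronger regions of the locus.

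Nrarp, a short ankyrin repeat protein that destabilizes the Notch complex, lies on chromosome 2 (25180758 to 25183339, plus strand). Its promoter region stood at percentile 87.1 in Dll1+ and 89.0 in Dll1− cells, with 219 and 323 reads (ratio 1.10, 0.926 to 1.32). The strongest region, 17.5 kb upstream, stood at 90.2 and 90.1. Both differed by less than 2 points between the lists.

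Neighboring weaker regions upstream of Nrarp shifted in opposite directions. The region 12.4 kb upstream (chr2:25167962-25168745) stood at 54.7 in Dll1+ against 27.4 in Dll1− cells, with 48 against 47 reads (ratio 1.66, 1.09 to 2.54). The region 7.89 kb upstream (chr2:25172712-25173020) stood at 25.5 against 53.5, with 34 against 78 reads (ratio 0.710, 0.460 to 1.08). Both hold a consensus, as printed above, the former 450 bp from its summit and the latter 73 bp. The 2 Dll1+ specific regions, 2.81 and 2.03 kb upstream, held 38 and 53 reads at percentiles 3.04 and 15.3, and the Dll1− specific region stood at 7.18. These 3 specific regions were weak by fold.

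Rbpj, the DNA-binding partner of all Notch receptors, lies on chromosome 5 (53466152 to 53657362, plus strand). The promoter regions stood at 59.7 against 64.1 and at 50.4 against 63.5, with 239 against 398 and 194 against 378 reads (ratios 0.979, 0.830 to 1.15, and 0.836, 0.700 to 0.997). The latter holds the consensus 887 bp upstream. The strongest region, 112 kb upstream, ranked alike at 93.7 and 94.0.

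Of 16 shared Rbpj regions, 3 were at least 20 points higher in Dll1− cells and 0 at least 20 points higher in Dll1+ cells. These rank counts lie near the background of 11.1% and 6.39% of all shared regions. The interval of the read ratio lay wholly below 1 at 5 of the 16 and wholly above 1 at 1, beside 15.8% and 16.4% of all. The intronic region 12.2 kb upstream of the nearest TSS (chr5:53543333-53543905) stood at 44.0 against 83.6, with 23 against 94 reads (ratio 0.399, 0.241 to 0.634). The intergenic region 92.5 kb upstream stood at 44.0 against 78.2, with 23 against 81 reads, and the intronic region 46.1 kb upstream at 32.6 against 66.2, with 19 against 57 reads. The intronic region 11.1 kb downstream of a TSS stood at 73.5 in Dll1+ against 55.5 in Dll1− cells, with 46 against 44 reads (ratio 1.70, 1.10 to 2.64), the largest Rbpj difference in that direction.

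The strongest Dll1− specific Rbpj region lay in an intron 53.6 kb upstream, with 43 reads at percentile 47.7. The strongest Dll1+ specific region lay in the same stretch, 54.8 kb upstream, with 23 reads at percentile 27.2. The median difference of the locus was −5.05 points (−19.0 to 2.41), at percentile 23.8 of the 5501 genes, and the median scaled ratio was 0.866.

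Maml2, a Mastermind coactivator, is a long gene on chromosome 9 (13297957 to 13709388, plus strand) with 3 TSSs, and distances are to the nearest of them. All 35 of its regions lay in introns or at promoters. The promoter region 1.29 kb upstream of a TSS was strong, at 90.6 in Dll1+ and 94.4 in Dll1− cells, with 268 and 459 reads (ratio 0.952, 0.815 to 1.11). A weaker promoter region stood at 18.7 and 25.2. The promoter region at the internal TSS (chr9:13661843-13662780) stood at 66.2 against 52, with 39 against 43 reads (ratio 1.48, 0.933 to 2.33).

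Intronic Maml2 regions within a short stretch shifted in both directions. The region 12.9 kb upstream of a TSS (chr9:13608547-13608876) stood at 27.7 against 72.8, with 65 against 239 reads (ratio 0.443, 0.332 to 0.585). This difference of −45.1 points was the largest of the 104 regions in that direction. The region 4.89 kb upstream of the same TSS (chr9:13616548-13616968) stood at 46.0 against 14.4, with 95 against 68 reads (ratio 2.28, 1.65 to 3.16). Between them, the region 8.06 kb upstream ranked alike, at 85.9 and 86.6.

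The strongest Maml2 region in Dll1+ cells lay 25.6 kb downstream of a TSS, at 96.4 against 98.8, and the strongest in Dll1− cells 19.4 kb downstream of another, at 93.2 against 99.3. The strongest specific regions stood at 48.9 in Dll1+ cells, with 25 reads, and at 46.4 in Dll1− cells, with 40 reads. The median difference was −2.41 points (−9.36 to 7.58) and the median scaled ratio 1.09, against 1.14 for 130 shared regions within 2 Mb. The predicted gene Gm17571, whose TSS lies inside a Maml2 intron, took a further 19 regions of the Maml2 body, of which 14 were shared, 2 Dll1+ specific and 3 Dll1− specific. With the 5′ most TSS of each gene alone, 6 shared and no specific regions were assigned to Maml2.

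**Figure D4:**
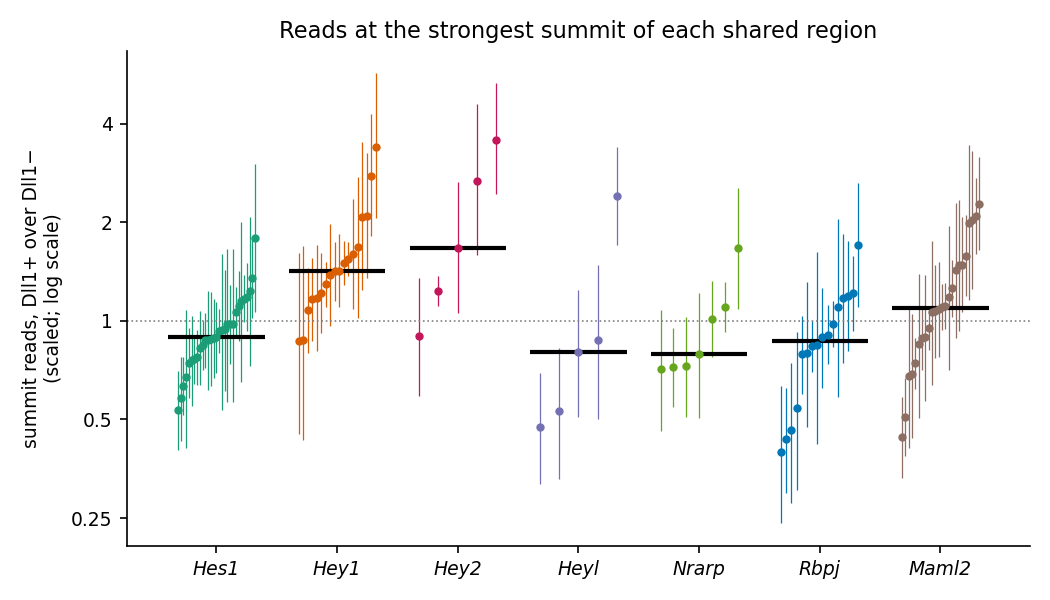
Scaled ratio of summit reads, Dll1+ over Dll1− (vertical axis, log scale), for each shared region of the 7 genes, sorted within a gene, with exact 95% intervals for counting error. Black bars are medians over regions and the dotted line marks the median of all shared regions. Medians run from 0.791 for Nrarp to 1.67 for Hey2, and 16 of 18 Hey1 regions lie above the dotted line.

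In the order of their medians, the scaled ratio was 1.67 for Hey2, 1.42 for Hey1, 1.09 for Maml2, 0.894 for Hes1, 0.866 for Rbpj, 0.802 for Heyl and 0.791 for Nrarp. The ranges over regions of neighbors in this order overlapped, with Hey2 and Hey1 at the upper end and Heyl and Nrarp at the lower end.

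Over the 12 promoter regions, 10 ranked lower and 2 higher in Dll1+ than in Dll1− cells, and 11 of the 12 differed by less than 20 points, with the Heyl promoter nearest its TSS as the exception. Of the 13644 shared promoter regions of all genes, 69.9% also ranked lower in Dll1+ cells. With equal numbers of rows 8 ranked lower and 4 higher, and the Hes1 promoter turned from −1.84 to 3.92 points. By −log10 p-value in place of fold 8 ranked lower and 4 higher, and the Hey1 promoter turned from −5.92 to 1.41 points.

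Other genes of the Notch pathway were taken from a list of 49, which held 587 union regions. Of these, 393 were shared (67.0%), 48 Dll1+ specific (8.18%, 6.22 to 10.7) and 146 Dll1− specific (24.9%, 21.5 to 28.5), close to the 9.01% and 24.6% of all union regions. The Dll1+ share of specific regions was 24.7% (19.2 to 31.3). Of their shared regions, 18 (4.58%) were at least 20 points higher in Dll1+ and 55 (14%) in Dll1− cells, beside 6.39% and 11.1% of all shared regions. Groups within the list varied, and the Dll1+ share of specific regions was 38.9% for the 4 receptor genes and 41.7% for the 11 processing genes, beside 39.0% for the 7 members. Of the shared regions of the 6 ligand genes, 10.2% were at least 20 points higher in Dll1+, beside 11.5% for the members.

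Dll1 itself had 20 regions, 16 shared, 2 Dll1+ specific and 2 Dll1− specific, with a median difference of 2.33 points. By number, the most Dll1− specific regions were at Sox9, a transcription factor gene of progenitor cells, with 25 of 65, and at the ligand gene Jag1, with 16 of 42. The luminal transcription factor gene Gata3 had 13 of 72 and the coactivator gene Maml3 13 of 45, beside 24.6% of all union regions. The most Dll1+ specific regions were at Sox9 with 6 of 65, Gata3 with 6 of 72, Bhlhe40, a repressor gene, with 5 of 38, and Fbxw7, a gene for Notch turnover, with 5 of 31, beside 9.01% of all. Psenen, which codes for a subunit of the receptor-cutting gamma-secretase, had no region of its own. The 8 Hes and Hey relatives held 64 regions, of which 45 were shared, 6 Dll1+ specific and 13 Dll1− specific.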

How the data were processed

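ATAC-seq was done on 3 Dll1+ and 4 Dll1− samples. Per the methods, the authors used the ENCODE ATAC-seq pipeline, run once per group, and deposited the optimal peaks, pooled over samples. The aligner, the peak caller and its thresholds were not given in the sources used here. The deposited fold ratio of each row was used for strength. The deposited −log10 p-value was used with it to recover whole summit reads and local backgrounds under a Poisson model, to within 0.01, for all rows but 1. The deposited −log10 q-value was not used. The deposited score, a capped display value, was not used, and the deposited summit offset gave positions. A later step by the authors, which counted reads in each sample, was not analysed here.

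Gene positions came from GENCODE on GRCm38, sequences from GRCm38.p6. Coordinates are 1-based. Medians carry binomial order-statistic intervals over regions. These treat regions as independent and cover no variation between samples. Recovery, classes and nearest genes were tested on simulated data. Promoter regions, the strongest and strongest specific regions of each gene, and the largest rank differences of at least 20 points were named by rule. Other regions were named after their values were seen. The genes, gene lists and rules were chosen with earlier results of these data known. Alternatives changed the overlap, row filter, distance, TSS, rank measure, motif window and scaling. Python 3.11.15, numpy 2.4.6, pandas 2.3.3 and scipy 1.17.1 were used. A further marker list is not reported here.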

Additional observations from a re-analysis of the deposited data

How the results depend on the processing

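No paired analysis was possible because both lists pool their samples, and for the same reason no sample could be left out. Values over the 7 genes or the other pathway genes follow for each alternative that changed a count by over 1.5 times or moved a value outside its interval. A reciprocal overlap of 50%, which splits shared regions, gave 27 Dll1+ specific regions of the 7 genes. With rows above their list's median fold, the 7 genes had 58 shared and 13 Dll1− specific regions, the other pathway genes 224 shared, 31 Dll1+ specific and 82 Dll1− specific, shifts of 20 points numbered 2 and 4, and 1 promoter region ranked higher in Dll1+. Requiring specific regions to be above that median left 0 Dll1+ specific and 2 Dll1− specific regions for the 7 genes, and 3 and 26 for the others. Within 50 kb of a TSS there were 66 shared regions for the 7 genes, and 230 shared, 26 Dll1+ specific and 73 Dll1− specific for the others. The last 3 settings remove rows or regions by construction, and removing rows also turns shared regions into specific ones. With equal numbers of rows the members' median difference turned to 0.02 and that of Hes1 to 0.28, while that of all shared regions was 0.26, and 4 promoter regions ranked higher in Dll1+. With ranks among shared regions, the members' median was −0.62 and that of all regions −0.09. The 5′ most TSS gave 1 promoter region higher in Dll1+, and −log10 p gave 4. The cause of these changes was not tested. Thresholds of 10 and 30 points gave 27 and 5 regions higher in Dll1−, and 30 points gave 5 higher in Dll1+. A window of 50 bp each side held the RBPJ consensus in 4.14% of member windows against 0.991% of all. Scaling by the backgrounds multiplied every ratio by 1.18, 0.24 on the log2 scale, and gave a members' median of 1.18.

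Scaling the deeper list down to the Dll1+ background left the class counts of the 7 genes at 104, 16 and 25 and gave 13 regions at least 20 points higher in Dll1+. It was not run for promoter counts or read ratios. Leaving out Gm17571, an alternative chosen after seeing the data, changed region counts at Maml2 alone, whose shared regions then numbered 38. Hey2 stayed positive and Heyl negative in median difference in every ranking alternative run. For single genes, 52 values moved in that sense and are not given one by one, and 10 of 90 rank differences under all alternatives had another sign. They were medians of Hes1 and Hey1 and promoter differences of Hes1, Hey1, Hey2, Nrarp and Maml2. Of 7 gene medians of the read ratio, 2, Hes1 and Rbpj, crossed 1 under scaling by the backgrounds. The Dll1− background was 1.93 times that of Dll1+.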
